A study of Mus musculus with 6 samples.

Results

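The genes described here encode the enzymes that write and remove DNA methylation, the Polycomb repressive complexes PRC1 and PRC2, the Polycomb deubiquitinase PR-DUB, and the Trithorax group with related histone methyltransferases and demethylases. They were taken from a list of 45 gene symbols, and 43 of these had a row of their own among the 19938 genes measured. Of the other 2, Cbx6 shared its only row with another symbol and Ash1l had no row under its symbol, so neither was analysed here. Expression had been profiled with Affymetrix arrays in sorted bone marrow from 3 p65 WT mice and 3 p65 KO mice, with 1 array per mouse and no technical replicates. p65 (RelA) is one of the DNA-binding proteins that make up NF-κB, a transcription factor of inflammation and cell survival. All 6 samples were sorted as lineage-negative, Flk2-negative, c-kit-positive and Sca-1-positive cells, a gate (KLSF in the sample names) that enriches for hematopoietic stem cells. The series title places the p65 deletion in the hematopoietic compartment, and the labels give no age, strain or driver of the deletion.

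DNA methyltransferases place methyl groups on cytosines, and TET enzymes oxidise them, which leads to their removal. PRC2 methylates lysine 27 of histone H3, PRC1 ubiquitinates histone H2A and compacts chromatin, and Trithorax proteins of the COMPASS family methylate lysine 4 of histone H3, a mark of active genes. In hematopoietic stem cells these systems set the balance of self-renewal and differentiation, and Dnmt3a, Tet2, Asxl1 and Ezh2 are among the genes most often mutated in clonal blood disorders.

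No member passed the threshold between genotypes. In limma's moderated test, with Benjamini-Hochberg adjustment over all genes at 0.05, 0 of 43 members were called, against 0.818% of all genes, and with the replicate number as a block 0 were called as well, against 1.87%. At an unadjusted limma p under 0.05, 6 members were higher in knockout and 0 lower, where 13.8% of all genes were higher and 7.76% lower. These were Pcgf1, Ash2l, Ezh2, Pcgf6, Asxl2 and Suz12. In 12 members every knockout value lay above every wild-type value, in 0 it lay below, and in 31 the groups overlapped. Over all genes 34.6% were separated, 19.2% with knockout above and 15.4% with knockout below. The median log2 fold change (knockout minus wild-type) was 0.22 over the members and -0.04 over all genes, and 38 of 43 values were positive, against 45.9% of all genes. Each value's 95% interval from the same fit had a median half-width of 0.43, and in 38 members it lay wholly between -1 and 1, that is, within a doubling or halving of signal.

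This upward shift has to be read beside the signal level and beside wild-type replicate 1. The members' mean signal ran from 6.30 to 10.2 on the log2 scale, and the 8700 genes in that range had a median log2 fold change of 0.26, with 79.9% positive. In that range 27.5% of genes were higher at an unadjusted limma p under 0.05 and 37.3% were separated with knockout above, shares larger than the members' own 14% and 27.9%. In the same range 4.7% were separated with knockout below and 1.32% were called. Wild-type replicate 1 gave the lowest of the 6 values in 40 of 43 members (93.0%), against 75.5% of genes in the same range of signal. Without that array the members' median log2 fold change was 0.06, 27 of 43 values were positive, and 12 members were separated with knockout above and 7 with knockout below (21.1% and 21.5% of all genes). At an unadjusted limma p under 0.05, 6 members were then higher and 3 lower (13.6% and 10.5% of all genes). One member then passed limma, Pcgf1, against 4.66% of all genes. With array weights, which give that array the least weight, Pcgf1 and Ash2l passed, against 8.02% of all genes. With quantile and cyclic loess normalization, which equalise the signal range of the arrays, 18 and 19 of 43 values were positive and the medians were -0.03 under both. Then 5 and 4 members were separated with knockout above (13.5% and 13.4% of all genes) and 10 and 10 with knockout below (12.2% and 13%).

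**Figure D1:**
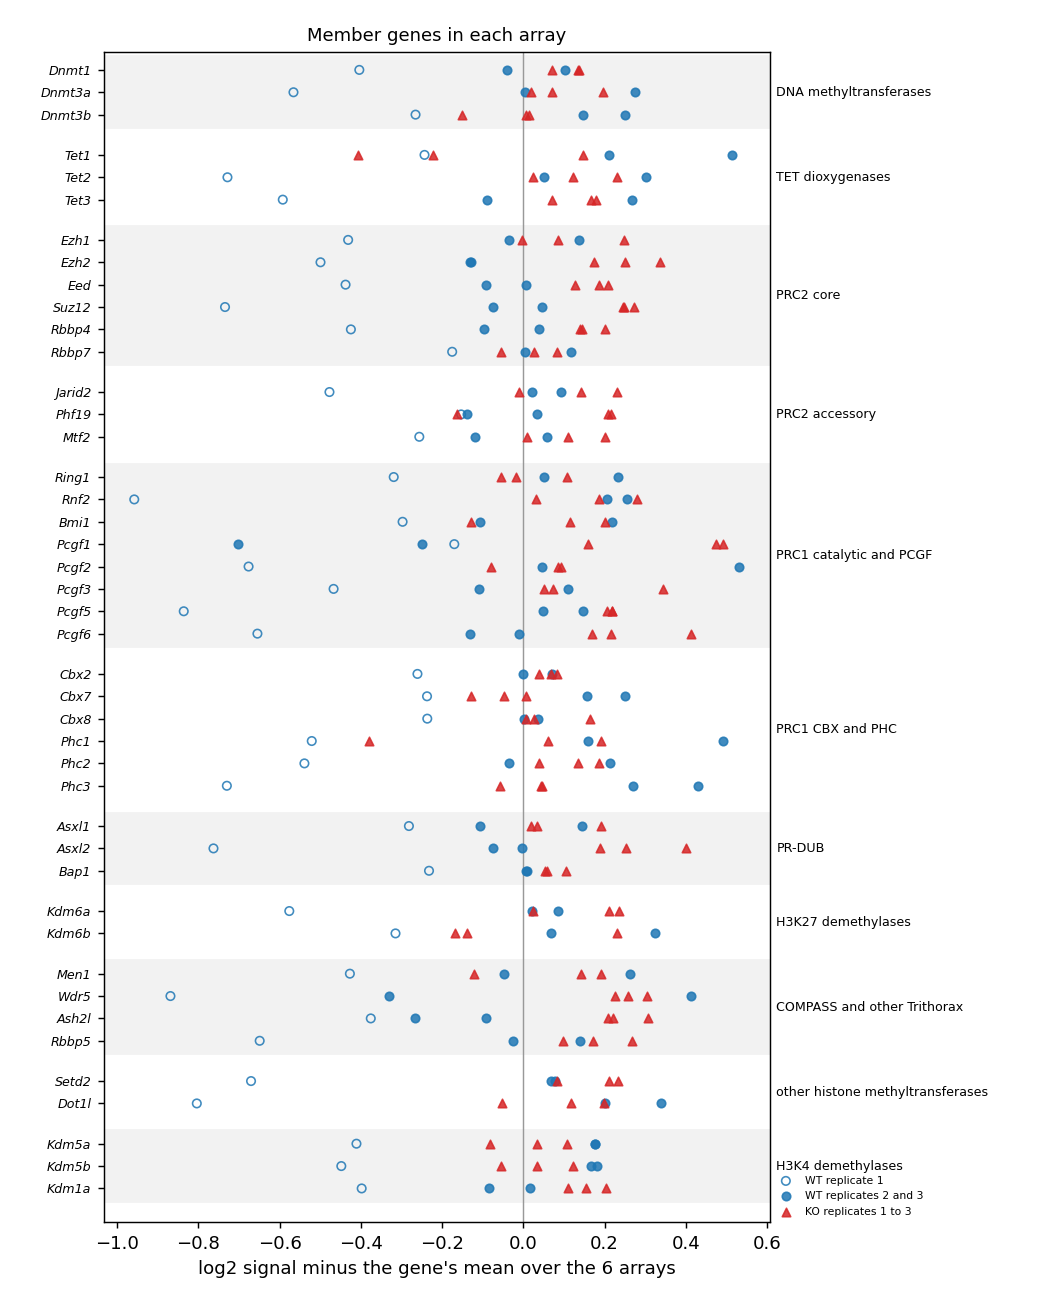
Log2 signal of the 43 members in each array (horizontal axis, minus the gene's mean over the 6 arrays), ordered by complex. Open circles mark wild-type replicate 1, which is the lowest value in 40 of 43 members; filled circles are wild-type replicates 2 and 3 and triangles the 3 knockouts.

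**Figure D2:**
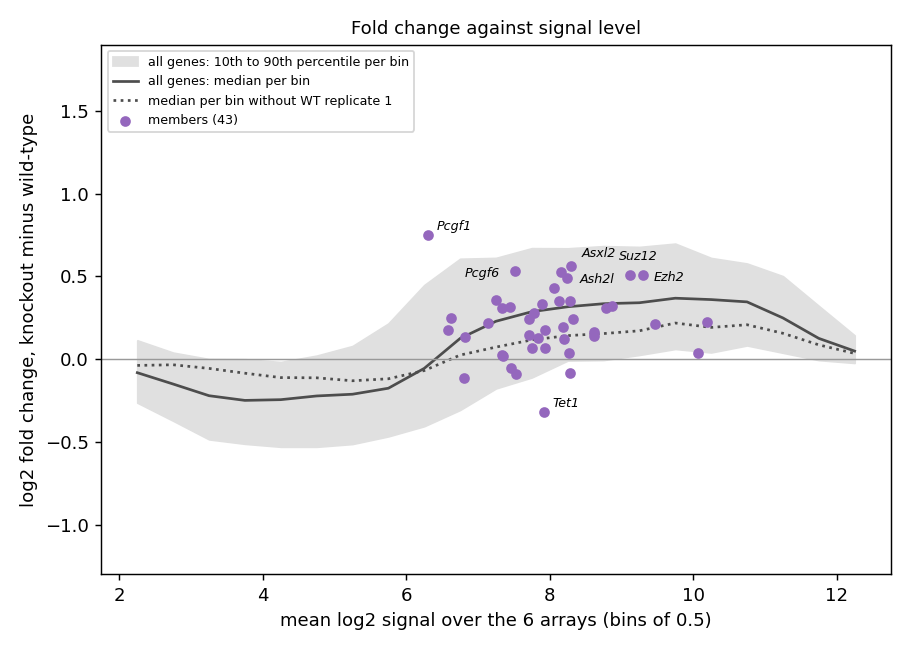
Log2 fold change (knockout minus wild-type) against mean log2 signal over the 6 arrays. The line and band give the median and the 10th to 90th percentiles of all genes in bins of 0.5, the dotted line the median without wild-type replicate 1, and points the 43 members. Pcgf1 (0.75) lies above the 90th percentile of its bin (0.45). Tet1 (-0.32), Phc1 (-0.09) and Rbbp7 (0.04) lie below the 10th percentiles of theirs (-0.11, -0.0087 and 0.040), and the other members lie inside.

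In the study's gate, markers of other cell states differed between the genotypes in the same arrays. Of 10 markers of myeloid progenitors, 8 rose and 0 fell in limma, and the mean log2 signal of the 10 ran from 7.45 to 7.74 in wild-type and from 9.35 to 9.65 in knockout. Of 15 markers of cycling cells, 4 rose and 0 fell, with means of 8.74 to 9.24 in the wild-type mice and 9.60 to 9.74 in knockout. Under both quantile and cyclic loess normalization 1 of the 15 rose in limma, and 11 and 12 of the values were positive. Without wild-type replicate 1, 7 of them rose, and without any other single array 0 or 1 did. Of 9 stem cell markers 1 fell (Hlf, by 1.27 on the log2 scale) and 0 rose, with means of 7.17 to 7.76 in the wild-type mice and 6.71 to 7.07 in knockout. Of the 9, 6 were lower at an unadjusted limma p under 0.05 (7.76% of all genes). Also 6 were separated with knockout below (15.4% of all genes). In limma 3 fell under both quantile and cyclic loess normalization, 6 without wild-type replicate 1 and 0 without any other single array. Of 8 markers of mature lineages 0 passed limma and 2 were lower at an unadjusted p under 0.05, with means of 5.14 to 5.48 in the wild-type mice and 4.98 to 5.16 in knockout. The same mean over 3 Y-linked genes, given as a low-signal reference, ran from 3.15 to 3.30, and levels of different probes cannot be ranked. Their part in the members' values was not tested, and in such bulk samples a shift in the mix of cells cannot be told apart from a shift in RNA per cell. Of the sort genes, Kit (c-kit) had signals of 10.08, 10.58 and 10.63 in the wild-type mice and 10.02, 10.18 and 10.17 in the knockouts (log2 fold change -0.30). Flt3 (Flk2) had 7.31, 7.45 and 8.08 in the wild-type mice and 7.68, 7.94 and 7.39 in the knockouts (log2 fold change 0.06). Neither passed limma on the deposited values, and the Sca-1 gene was not analysed here. Kit passed under 3 of the 15 alternative settings and Flt3 under 0. Leaving out wild-type replicate 1 gave Kit -0.48 (limma adjusted p = 0.04999). Rela, the gene of p65, had a mean log2 signal of 7.77 ± 0.22 in the wild-type mice and 7.39 ± 0.08 in the knockouts (each SD, n = 3; limma adjusted p = 0.209, and 0.04 when wild-type replicate 1 is left out). The labels do not place its probes against the deleted part, so Rela checks the genotypes only weakly.

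**Figure D3:**
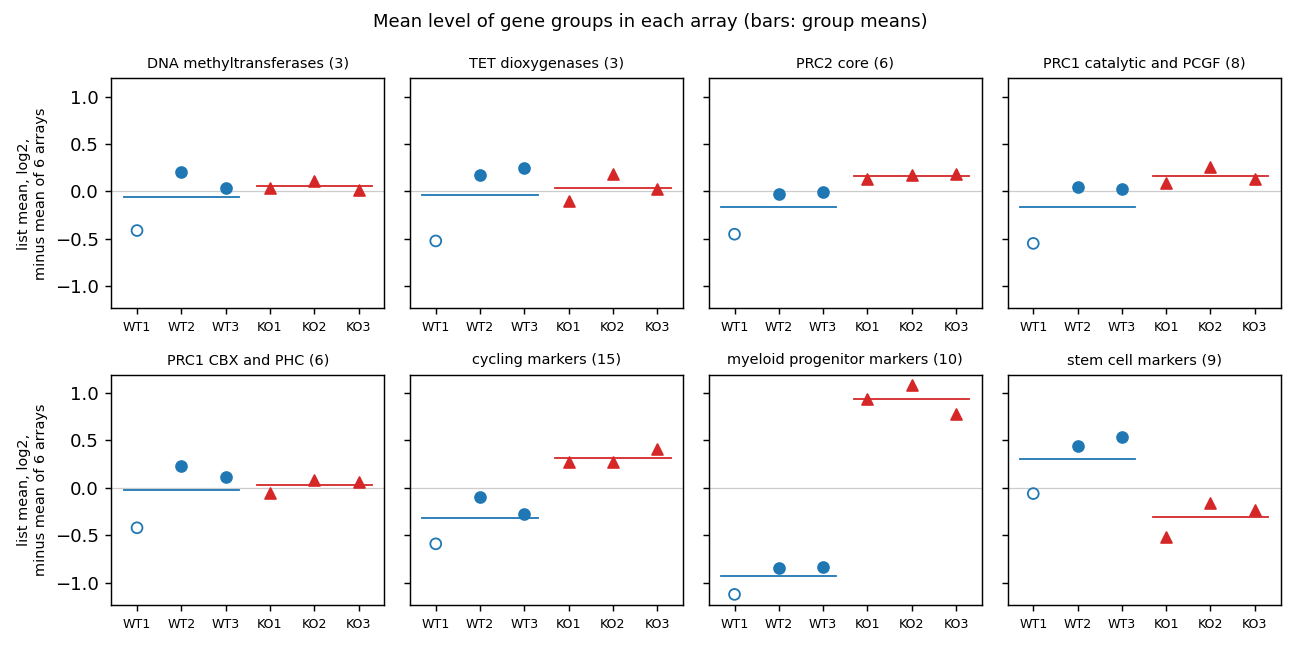
Mean log2 signal of 5 member groups and 3 marker lists in each array, minus the mean over the 6 arrays; bars are group means and the number of genes is in brackets. The knockouts lie above all wild-type arrays for the PRC2 core, the PRC1 catalytic and PCGF group, the cycling markers and the myeloid progenitor markers, and below them for the stem cell markers.

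Because p65 acts by binding DNA, the sequence before each member's start site was searched for the κB consensus decamer, the sequence that NF-κB dimers bind, on both strands. Promoters from RefSeq (GRCm38.p6) matched 38 of the 43 members, and the 250 bases before the start were read. Pcgf1 and Ash2l were among the members without such a promoter, so neither was searched. The consensus was found in 8 of 50 promoters of members (16.0%), in 8.19% of the promoters of genes tested and in 7.25% of all 32851 promoters. By gene this was 21.1% of the 38 members and 9.49% of the genes tested. The 8 genes were Dnmt3b, Jarid2, Phf19, Rbbp7, Ring1, Phc2, Asxl1 and Kdm5b. Their log2 fold changes ran from -0.09 to 0.24 with a median of 0.11, and in 0 of the 8 were the groups separated. Of the 30 members whose promoters lacked it, 10 were separated with knockout above, where 37.3% of genes in the members' range of signal were. Without wild-type replicate 1 the medians were -0.0057 with a match and 0.07 without, and the difference between these 2 sets was not tested. The E2F site forms TTTCCCGC and TTTGGCGC, searched because E2F factors drive genes of cycling cells, were found in 2 of 50 promoters of members (4.0%), Suz12 and Phf19, in 1.83% of the promoters of genes tested and in 1.3% of all promoters. Such matches are letters in a window and not measured binding. The stretches are shown for the DNA methylation and PRC2 genes that hold a match, 5′ to 3′ on the gene's strand, with the matched letters in capitals. In Phf19 the first capitals are the E2F form on the opposite strand, in Suz12 they are the E2F form, and all others are the κB consensus. The match lies on the gene's strand in Jarid2, on the opposite strand in Rbbp7 and on both in Phf19 and Dnmt3b, where the first run of capitals joins overlapping matches on the 2 strands.
Dnmt3b, chr2:153649258-153649406, plus strand: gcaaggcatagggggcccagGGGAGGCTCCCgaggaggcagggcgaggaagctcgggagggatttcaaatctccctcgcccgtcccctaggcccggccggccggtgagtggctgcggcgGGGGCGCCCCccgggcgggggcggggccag
Jarid2, chr13:44730538-44730587, plus strand: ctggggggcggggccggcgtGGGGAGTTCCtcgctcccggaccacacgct
Phf19, chr2:34914120-34914204, minus strand: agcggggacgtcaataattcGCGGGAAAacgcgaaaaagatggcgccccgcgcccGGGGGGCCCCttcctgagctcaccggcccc
Rbbp7, chrX:162760230-162760279, plus strand: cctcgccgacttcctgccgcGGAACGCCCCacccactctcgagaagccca
Suz12, chr11:79992867-79992914, plus strand: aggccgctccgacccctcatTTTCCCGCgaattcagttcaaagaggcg

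The groups overlapped in all 3 DNA methyltransferase genes on the deposited values, and 0 of 3 reached an unadjusted limma p under 0.05 (21.6% of all genes did). Under both quantile and cyclic loess normalization 2 of the 3 were separated with knockout below (12.2% and 13% of all genes). Under both, 1 was lower at an unadjusted limma p under 0.05 (1513 and 1697 of all 19938 genes). Dnmt1, which copies methylation after DNA replication, had log2 signals of 9.79, 10.30 and 10.16 in the wild-type mice and 10.27, 10.33 and 10.33 in the knockouts. Dnmt3a, a de novo methyltransferase that stem cells need to differentiate, had 7.62, 8.46 and 8.19 in the wild-type mice and 8.20, 8.38 and 8.25 in the knockouts. For both genes wild-type replicate 1 was the lowest array and the knockouts lay within or beside the other wild-type values. The log2 fold change of Dnmt3a was 0.19 with a 95% interval of -0.30 to 0.69 (limma adjusted p = 0.573), and it was -0.04 without wild-type replicate 1. That of Dnmt1 was 0.23 (limma adjusted p = 0.399), with 0.08 without that array and -0.12 and -0.10 under quantile and cyclic loess normalization. Dnmt3b, the other de novo enzyme and the gene with the κB letters shown above, had a log2 fold change of -0.09, which was -0.33 under both quantile and cyclic loess normalization (limma adjusted p = 0.203 and 0.165). Its knockout values of 7.55, 7.54 and 7.38 lay between wild-type replicate 1 (7.27) and the other wild-type arrays (7.78 and 7.68).

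Among the TET dioxygenase genes Tet1 went the other way from most members. Its log2 signals were 7.67, 8.13 and 8.43 in the wild-type mice and 7.51, 8.06 and 7.69 in the knockouts, so the groups overlapped. The log2 fold change of Tet1 was -0.32 (95% interval -0.84 to 0.20, limma adjusted p = 0.395), the lowest of the 43, and -0.52 without wild-type replicate 1. Without that array, and under quantile (-0.59) and cyclic loess normalization (-0.61), Tet1 was separated with knockout below and lower at an unadjusted limma p under 0.05, with limma adjusted p-values of 0.138, 0.149 and 0.109. It stayed negative under all 15 alternative settings, and the other 2 rows of the gene gave -0.32 and -0.27. Tet2, whose loss expands stem cells in mice, had 5.89, 6.67 and 6.92 in the wild-type mice and 6.65, 6.85 and 6.74 in the knockouts. Wild-type replicate 1 was low and the other 5 arrays lay within a narrow range. The log2 fold change of Tet2 was 0.25 (limma adjusted p = 0.532) and turned to -0.05 without that array. Tet3 had 7.19, 8.04 and 7.69 in the wild-type mice and 7.85, 7.96 and 7.94 in the knockouts (log2 fold change 0.28, limma adjusted p = 0.429).

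In the PRC2 core, 4 of 6 genes had every knockout array above every wild-type array, where 19.2% of all genes and 37.3% of genes in the members' range of signal did. Under quantile normalization 2 were separated with knockout above and 1 below (13.5% and 12.2% of all genes). Under cyclic loess 1 was above and 1 below (13.4% and 13% of all genes). None of the 6 passed limma (0 calls). At an unadjusted limma p under 0.05, 2 were higher (13.8% of all genes, 27.5% in the members' range of signal). Ezh2, the main H3 lysine 27 methyltransferase of dividing cells, had log2 signals of 8.80, 9.17 and 9.16 in the wild-type mice and 9.55, 9.47 and 9.63 in the knockouts. It was 1.42-fold higher in knockout (log2 fold change 0.51, SE 0.15, 95% interval 0.15 to 0.86), with a limma adjusted p of 0.137 and a range of 0.0585 to 0.462 over 15 alternatives. Wild-type replicate 1 was the lowest array of Ezh2. Without it the groups stayed separated, as leaving out an array cannot make separated groups overlap. The difference then shrank to 0.38 on the log2 scale (limma adjusted p = 0.0775).

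Suz12, a scaffold subunit that PRC2 needs for activity, had 8.39, 9.04 and 9.16 in the wild-type mice and 9.36, 9.37 and 9.39 in the knockouts. The 3 knockouts were tightly grouped, with an SD of 0.01 against 0.42 in wild-type. Its log2 fold change was 0.51 (SE 0.21, limma adjusted p = 0.213) and 0.27 without wild-type replicate 1. Eed, the subunit that reads trimethylated lysine 27, had 7.69, 8.14 and 8.04 in the wild-type mice and 8.32, 8.26 and 8.34 in the knockouts (log2 fold change 0.35, limma adjusted p = 0.239). A second, dimmer row of Eed gave 0.48. Rbbp4, a histone-binding subunit that PRC2 shares with other complexes, had 8.44, 8.90 and 8.77 in the wild-type mice and 9.01, 9.005 and 9.07 in the knockouts. The log2 fold change of Rbbp4 was 0.32, and it was -0.01 and -0.02 under quantile and cyclic loess normalization. Under the same 2 normalizations Ezh2 shrank to 0.16 and 0.16, Suz12 to 0.17 and 0.16 and Eed to 0.053 and 0.039, with limma adjusted p-values of 0.446 to 0.873.

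The remaining core genes overlapped between the groups. Ezh1, the paralogue of Ezh2 that is prominent in resting cells, had 6.71, 7.11 and 7.28 in the wild-type mice and 7.14, 7.39 and 7.22 in the knockouts (log2 fold change 0.22, limma adjusted p = 0.448), and 0.06 remained when wild-type replicate 1 was left out. Rbbp7, the paralogue of Rbbp4, had a log2 fold change of 0.04. The mean over the PRC2 core was 8.32, 8.74 and 8.77 in the wild-type mice and 8.90, 8.94 and 8.96 in the knockouts. In these means wild-type replicate 1 was lowest and all knockouts were highest. The same held for the PRC1 catalytic and PCGF, PR-DUB and COMPASS genes and for the related DNA methylation genes. It also held for the cycling and the myeloid progenitor markers. Wild-type replicate 1 was lowest in 75.5% of genes in the members' range of signal. The part of cycling or other cells in these means was not tested.

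The 3 genes of accessory PRC2 proteins, which guide the complex to its targets, had log2 fold changes of 0.17 to 0.24 and overlapping groups. Jarid2 had 7.84, 8.34 and 8.41 in the wild-type mice and 8.31, 8.55 and 8.46 in the knockouts (log2 fold change 0.24, limma adjusted p = 0.42). Mtf2, a Polycomb-like protein that binds CpG-rich DNA, had 9.22, 9.35 and 9.53 in the wild-type mice and 9.48, 9.58 and 9.67 in the knockouts (log2 fold change 0.21, limma adjusted p = 0.377). Quantile and cyclic loess normalization made both values negative, whereas Phf19, another Polycomb-like gene (0.17), stayed positive.

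PRC1 is built around a RING1 protein and 1 of several PCGF proteins, and its PCGF genes ranged from the members' highest log2 fold change (Pcgf1) to values near 0. Of 8 genes of this core, 0 passed limma. Of the 8, 2 were higher at an unadjusted limma p under 0.05 and 3 were separated with knockout above, where 27.5% and 37.3% of genes in the members' range of signal were. Pcgf1, which assembles the variant PRC1 complex with Kdm2b and Bcor, had log2 signals of 6.13, 5.60 and 6.05 in the wild-type mice and 6.77, 6.79 and 6.46 in the knockouts. Wild-type replicate 2, not replicate 1, was its lowest array. Pcgf1 was 1.68-fold higher in knockout (log2 fold change 0.75, SE 0.18, 95% interval 0.32 to 1.17), the highest value and the smallest p of the 43 members, with a limma adjusted p of 0.0974. Leaving out wild-type replicate 1 gave 0.85 and a limma adjusted p of 0.042, array weights gave 0.79 and 0.0185, and over 15 alternatives the adjusted p ran from 0.0185 to 0.347. Its log2 fold change lay between 0.58 and 0.86 in all of them.

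Pcgf6, of another variant PRC1 complex with E2f6 and Mga, had 6.87, 7.51 and 7.39 in the wild-type mice and 7.74, 7.93 and 7.69 in the knockouts. The groups did not overlap, and the log2 fold change was 0.53 (SE 0.19, limma adjusted p = 0.178), with 0.34 without wild-type replicate 1. Pcgf5 had 7.22, 8.10 and 8.20 in the wild-type mice and 8.27, 8.26 and 8.27 in the knockouts. Here the separation from wild-type replicates 2 and 3 was small, and the log2 fold change of 0.43 became 0.12 without wild-type replicate 1. Pcgf3 had a log2 fold change of 0.31 with overlapping groups.

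The groups also overlapped in Bmi1, Pcgf2 and the catalytic genes Ring1 and Rnf2. Bmi1, which stem cells need for self-renewal, had 7.91, 8.10 and 8.42 in the wild-type mice and 8.07, 8.32 and 8.40 in the knockouts. Its log2 fold change was 0.12 with a 95% interval of -0.28 to 0.53 (limma adjusted p = 0.654), and 0.01 without wild-type replicate 1. Pcgf2, the close paralogue of Bmi1, had 0.07, the E3 ligase gene Ring1 had 0.02 and its paralogue Rnf2 had 0.33, and all 3 turned negative without wild-type replicate 1. In Rnf2 that array stood far from the others, at 6.94 against 7.93 to 8.18.

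The 6 measured genes of the CBX and PHC subunits, which read methylated lysine 27 and link PRC1 complexes together, all had overlapping groups. Of the 6, 0 reached an unadjusted limma p under 0.05, where 21.6% of all genes did. Cbx7, the CBX protein of self-renewing stem cells, had 6.57, 6.96 and 7.06 in the wild-type mice and 6.68, 6.76 and 6.81 in the knockouts. Its knockout values lay between wild-type replicate 1 and the other wild-type arrays. The log2 fold change of Cbx7 was -0.11 (95% interval -0.49 to 0.26, limma adjusted p = 0.661), and it stayed negative under all 15 alternatives, from -0.26 to -0.02. Cbx8, a CBX protein linked to progenitors, had 6.59, 6.83 and 6.86 in the wild-type mice and 6.83, 6.99 and 6.85 in the knockouts (log2 fold change 0.13, limma adjusted p = 0.555). Cbx2 had 0.13 as well. Phc2 had 7.17, 7.92 and 7.68 in the wild-type mice and 7.85, 7.90 and 7.75 in the knockouts (log2 fold change 0.24, limma adjusted p = 0.457). Phc1 (-0.09) and Phc3 (0.02) had -0.37 and -0.34 without wild-type replicate 1, and the second row of Phc3 disagreed with the row used, with a log2 fold change of 0.61.

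PR-DUB removes the ubiquitin that PRC1 adds to histone H2A, and 2 of its 3 genes were separated with knockout above, where 37.3% of genes in the members' range of signal were. Under quantile and cyclic loess normalization 1 was separated above (13.5% and 13.4% of all genes) and 1 below (12.2% and 13%). Asxl2, a cofactor of the enzyme, had 7.53, 8.22 and 8.29 in the wild-type mice and 8.48, 8.55 and 8.69 in the knockouts. Its log2 fold change was 0.56 (SE 0.21, 95% interval 0.07 to 1.05, limma adjusted p = 0.192) and 0.32 without wild-type replicate 1, and it stayed above 0 under all 15 alternatives. Bap1, the catalytic subunit, had 7.48, 7.72 and 7.72 in the wild-type mice and 7.77, 7.82 and 7.77 in the knockouts. All knockouts of Bap1 were above all wild-types, but by little, and the log2 fold change was 0.15 (limma adjusted p = 0.502). Asxl1, the paralogue of Asxl2, had 8.33, 8.76 and 8.51 in the wild-type mice and 8.63, 8.65 and 8.81 in the knockouts, with a log2 fold change of 0.16 (95% interval -0.19 to 0.52, limma adjusted p = 0.512). Quantile and cyclic loess normalization gave negative values for Asxl1 and Bap1.

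The H3 lysine 27 demethylase genes overlapped between the groups. Kdm6a, an X-linked gene, had 6.87, 7.53 and 7.47 in the wild-type mice and 7.47, 7.68 and 7.66 in the knockouts (log2 fold change 0.31, limma adjusted p = 0.352). Kdm6b, a demethylase gene induced in inflammatory macrophages, had 7.15, 7.53 and 7.79 in the wild-type mice and 7.29, 7.69 and 7.32 in the knockouts. In 2 of the 3 knockouts it was below wild-type replicates 2 and 3. Its log2 fold change was -0.05 (95% interval -0.51 to 0.41, limma adjusted p = 0.875).

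Of the 4 measured COMPASS genes 0 passed limma, 1 was higher at an unadjusted p under 0.05 and 1 was separated with knockout above (27.5% and 37.3% of genes in the members' range of signal). Ash2l, a core subunit of all COMPASS complexes, had log2 signals of 7.87, 7.98 and 8.15 in the wild-type mice and 8.45, 8.55 and 8.46 in the knockouts. It was 1.40-fold higher (log2 fold change 0.49, SE 0.14, 95% interval 0.17 to 0.81, limma adjusted p = 0.123). Leaving out wild-type replicate 1 gave Ash2l 0.42. Array weights gave the lowest limma adjusted p of its 15 alternatives, 0.0462, and the highest was 0.517. Wdr5, another core subunit, had 7.28, 8.56 and 7.82 in the wild-type mice and 8.41, 8.38 and 8.46 in the knockouts. The wide spread in wild-type (SD 0.64) left its log2 fold change of 0.53 with an interval of -0.14 to 1.19 (limma adjusted p = 0.301). Rbbp5 had 0.36 with overlapping groups. Men1, which encodes menin, the partner of the methyltransferase Kmt2a, had 8.19, 8.88 and 8.57 in the wild-type mice and 8.49, 8.76 and 8.81 in the knockouts (log2 fold change 0.14, limma adjusted p = 0.649) that was -0.04 without wild-type replicate 1.

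Setd2 methylates lysine 36 and Dot1l lysine 79 of histone H3. Setd2 had 7.61, 8.35 and 8.36 in the wild-type mice and 8.36, 8.49 and 8.51 in the knockouts, a separation by a small margin (log2 fold change 0.35, limma adjusted p = 0.342). Its second row gave 0.39. Dot1l had 7.13, 8.28 and 8.14 in the wild-type mice and 7.89, 8.06 and 8.14 in the knockouts, and its log2 fold change of 0.18 turned to -0.18 without wild-type replicate 1 (limma adjusted p = 0.693 with all arrays). Of the lysine 4 demethylase genes, Kdm1a (LSD1), which blood cells need to mature, had 8.38, 8.70 and 8.80 in the wild-type mice and 8.93, 8.89 and 8.98 in the knockouts. Kdm1a was separated (log2 fold change 0.31, limma adjusted p = 0.267), but its value was -0.03 under both quantile and cyclic loess normalization. Kdm5b had 7.49, 8.10 and 8.12 in the wild-type mice and 7.88, 7.97 and 8.06 in the knockouts, and its log2 fold change of 0.07 became -0.14 when wild-type replicate 1 was left out. Kdm5a went from 0.04 to -0.16.

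**Figure D4:**
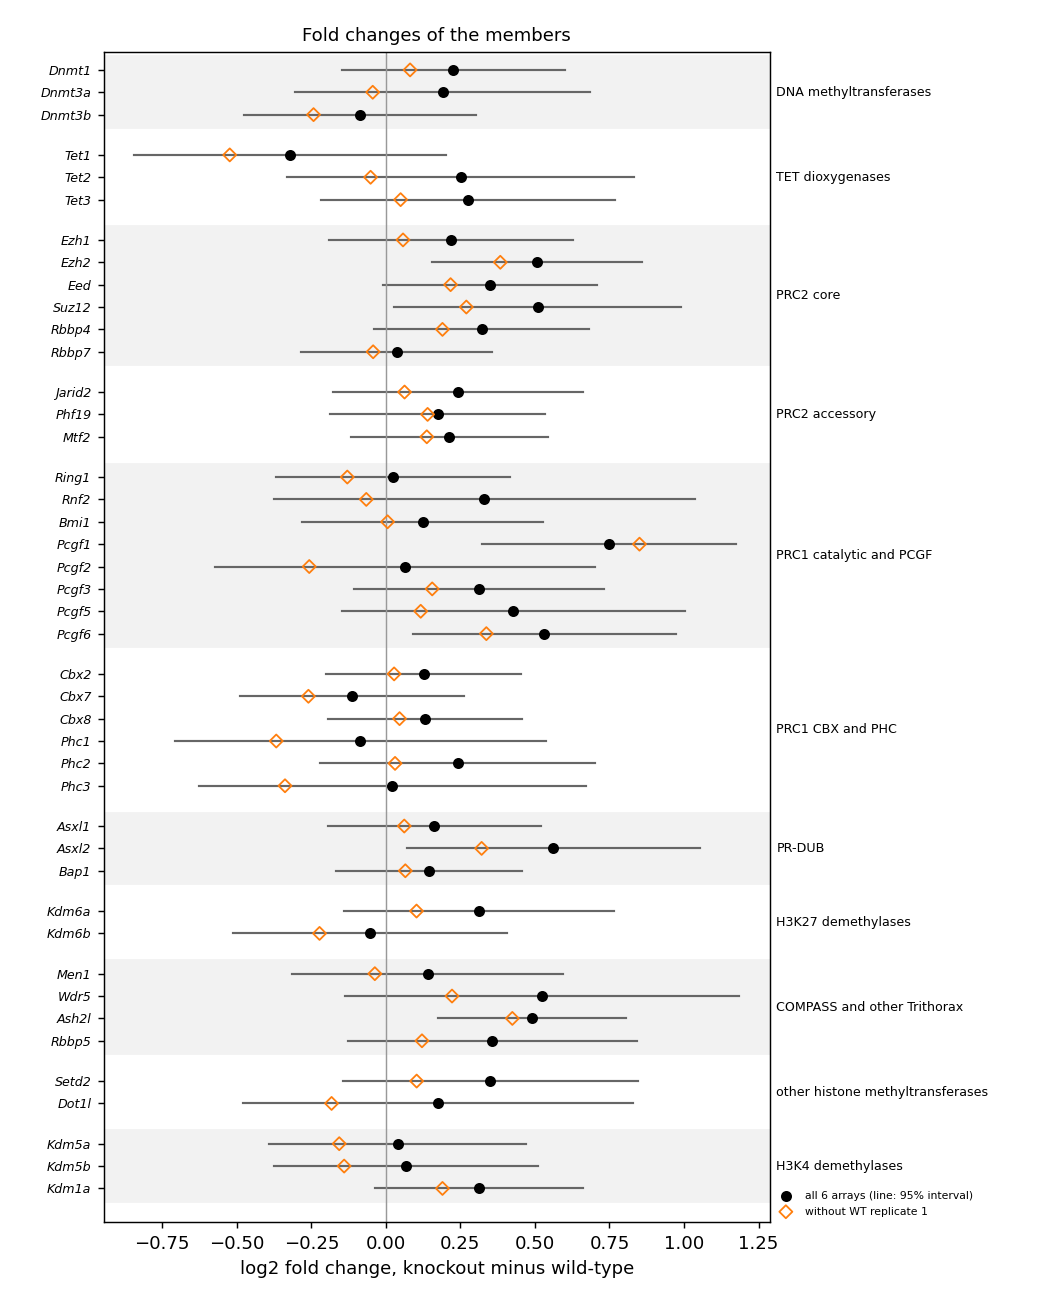
Log2 fold change (knockout minus wild-type) of the 43 members by complex, with 95% intervals from the fit to all 6 arrays (filled points) and the value without wild-type replicate 1 (open diamonds). The diamonds lie to the left of the points in all members but Pcgf1, where the value goes from 0.75 to 0.85.

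Across the members, 16 values were positive and 2 negative under all 15 alternative settings, and 25 changed sign in at least 1. The 16 were Ezh2, Suz12, Eed, Ezh1 and Phf19 of PRC2, Pcgf1, Pcgf3, Pcgf5 and Pcgf6 of PRC1, Asxl2 of PR-DUB, Ash2l, Wdr5 and Rbbp5 of COMPASS, and Tet3, Kdm6a and Setd2. The 2 were Tet1 and Cbx7. A constant sign is not a call, and 0 of these 18 passed limma on the deposited values.

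Related genes of the same systems were examined as 3 lists, of which 67 genes were measured. Of the 67, 1 passed limma, where 0.818% of all genes did. At an unadjusted limma p under 0.05, 8 were higher (11.9%) and 0 lower. Of all genes 13.8% were higher and 7.76% lower, and of genes in the members' range of signal 27.5% were higher. The median log2 fold change of the 67 was 0.25, against 0.26 for genes in the members' range of signal. The call was Idh1, which encodes the cytosolic isocitrate dehydrogenase whose product, 2-oxoglutarate, is a cofactor of TET and histone demethylases. Idh1 had log2 signals of 6.92, 7.47 and 7.18 in the wild-type mice and 8.32, 8.50 and 8.09 in the knockouts, well apart. It rose 2.17-fold (log2 fold change 1.12, SE 0.19, limma adjusted p = 0.0467). The adjusted p was 0.0257 without wild-type replicate 1 and ran from 0.00673 to 0.237 over 15 alternatives. Idh1 was not called under quantile normalization or when any array but wild-type replicate 1 was left out.

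In the DNA methylation list of 14 genes, which holds Idh1, 4 were higher at an unadjusted limma p under 0.05 (28.6%). This compares with 13.8% of all genes and 27.5% in the members' range of signal. Of the 14, 7 were separated with knockout above (50%, against 19.2% and 37.3%). Hells, a chromatin remodeller that supports methylation, had 7.66, 8.26 and 8.04 in the wild-type mice and 8.53, 8.62 and 8.56 in the knockouts (log2 fold change 0.59, limma adjusted p = 0.135). Idh2, the mitochondrial paralogue of Idh1, had 9.47, 9.91 and 9.83 in the wild-type mice and 10.20, 10.30 and 10.23 in the knockouts (log2 fold change 0.51, limma adjusted p = 0.142). In both genes the groups did not overlap.

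In the Polycomb list of 22 genes 0 passed limma and 2 were higher at an unadjusted p under 0.05 (9.09%, against 13.8% of all genes). Rybp, a subunit of variant PRC1, had 7.65, 7.65 and 7.80 in the wild-type mice and 8.05, 8.11 and 8.08 in the knockouts (log2 fold change 0.38, limma adjusted p = 0.165), and its second row gave 0.44. Usp7, a deubiquitinase that associates with PRC1, differed by 0.48 on the log2 scale (limma adjusted p = 0.231) and L3mbtl2, of the Pcgf6 complex, 0.35 (limma adjusted p = 0.241).

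In the Trithorax list of 31 genes 0 passed limma and 2 were higher at an unadjusted p under 0.05 (6.45%, against 13.8% of all genes). Dpy30, a COMPASS core subunit like Ash2l, had 9.33, 9.44 and 9.73 in the wild-type mice and 9.86, 9.88 and 9.91 in the knockouts (log2 fold change 0.39, limma adjusted p = 0.195). Kdm5c, an X-linked lysine 4 demethylase gene, had 0.43 (limma adjusted p = 0.215). Mllt3, a protein that reads acylated histones and supports stem cell maintenance, was lower, with 7.99, 8.54 and 8.60 in the wild-type mice and 8.07, 7.95 and 7.94 in the knockouts. Only wild-type replicate 1 lay among the knockout values of Mllt3. Its log2 fold change was -0.39 (SE 0.19, limma adjusted p = 0.257), and leaving out wild-type replicate 1 gave -0.59 (limma adjusted p = 0.0311). Mllt3 also passed with array weights (-0.57), quantile normalization (-0.70) and cyclic loess (-0.71), and its adjusted p ran from 0.0194 to 0.523 across the 15 alternatives.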

How the data were processed

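RNA from sorted cells of 3 p65 WT and 3 p65 KO mice had been amplified with a NuGEN Ovation Pico WTA kit and hybridised to 1 array per mouse, per the labels' protocols. The authors deposited 1 table of log2 values, 35557 rows by 6 arrays, with RMA, Affymetrix Expression Console and Partek named in the submitters' processing notes. Whether all arrays were normalized together, and the genome build, are not given in the sources used here. An exon array and the Exon Array Computational Tool are named in the design text, while the row IDs matched the annotation of a gene array, and which was used was not settled. The annotation gave 21789 rows 1 symbol, 1621 several and 12147 none listed. Rows with 1 symbol were used, keeping per gene the row with the highest mean, which left 19938 genes. No columns were left out.

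The genotypes were contrasted (knockout minus wild-type) with limma 3.58.1 under R 4.3.3, two-sided, 4 residual degrees of freedom, with Benjamini-Hochberg adjustment over all genes at 0.05. Array medians of these genes ran from 5.99 to 6.09 and SDs from 1.64 (wild-type replicate 1) to 2.07. Only 3 arrays a group limits the precision, and a two-sided exact permutation test of 1 gene cannot go below p = 0.1. Alternatives were quantile and cyclic loess normalization, median centring, leaving out the dimmest genes (a fraction of 0.333 by mean signal), intensity trend, robust variance, array weights, the mean of a gene's rows, a replicate block and leaving out each array. Same-numbered arrays' deviations from their group means correlated at 0.368, 0.119 and 0.162, above the minimum of 0.1, so the replicate block was tried as an alternative. The main fit held no block and treated the mice as unpaired. Differently numbered arrays were not correlated for comparison, and the labels do not say what a number marks. The test was checked on simulated data, with 5 runs of 200 changed genes each. It called 48.6% of genes changed by 1 on the log2 scale in either direction and 91.6% of those changed by 2. False calls averaged 4.6 per run. Members and lists were chosen with earlier results of these data known. Every measured member was named, with values in each array for those past the threshold in any fit, the 2 smallest p of each complex and 8 well-known genes; of related lists, the calls and otherwise the 3 smallest p.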

Additional observations from a re-analysis of the deposited data

How the results depend on the processing

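The count of 0 members called was the same under 13 of 15 alternatives, the replicate block included (0 members, 372 of all genes). It was 2 with array weights (Pcgf1 and Ash2l), and it ran from 0 to 1 over the fits without 1 array, where the 1 was Pcgf1 without wild-type replicate 1. Related genes called were 2 with cyclic loess normalization and 4 with array weights, and from 0 to 2 without 1 array. Calls over all genes were 163 (137 higher, 26 lower), 252 with cyclic loess (154 higher, 98 lower), 314 with centred arrays (288 higher, 26 lower), 505 without the dimmest genes, 1599 with array weights, 372 with the replicate block, 115 with quantile normalization (77 higher, 38 lower), and from 21 to 929 without 1 array. Members whose groups did not overlap numbered from 12 to 21 without 1 array. Leaving out an array cannot make separated groups overlap, so this number could only stay or rise. The 21, all with knockout above, came without wild-type replicate 2. In that fit 5055 of all 19938 genes were separated with knockout above and 4624 with knockout below. With no array left out these were 3827 and 3067. The replicate block changed no member's call.

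Signs of members turned as follows, and the cause was not tested. Under quantile normalization the log2 fold change was -0.16 for Asxl1, -0.13 for Bap1, -0.18 for Bmi1, -0.16 for Cbx2, -0.0073 for Cbx8, -0.12 for Dnmt1, -0.10 for Dnmt3a, -0.087 for Dot1l, -0.066 for Jarid2, -0.028 for Kdm1a, -0.27 for Kdm5a, -0.22 for Kdm5b, -0.18 for Men1, -0.13 for Mtf2, -0.18 for Pcgf2, -0.017 for Phc2, -0.15 for Phc3, -0.015 for Rbbp4, -0.31 for Rbbp7 and -0.19 for Ring1. Under cyclic loess normalization it was -0.18 for Asxl1, -0.12 for Bap1, -0.19 for Bmi1, -0.16 for Cbx2, -0.10 for Dnmt1, -0.12 for Dnmt3a, -0.12 for Dot1l, -0.083 for Jarid2, -0.033 for Kdm1a, -0.28 for Kdm5a, -0.23 for Kdm5b, -0.20 for Men1, -0.13 for Mtf2, -0.21 for Pcgf2, -0.028 for Phc2, -0.20 for Phc3, -0.024 for Rbbp4, -0.29 for Rbbp7 and -0.19 for Ring1. With array weights it was -0.11 for Dot1l, -0.12 for Kdm5a, -0.11 for Kdm5b, -0.15 for Pcgf2, -0.26 for Phc3, -0.035 for Rbbp7, -0.079 for Ring1 and -0.022 for Tet2. With centred arrays it was 0.023 for Kdm6b. Over the fits without 1 array, the members that turned sign ranged from -0.044 to 0.38 for Dnmt3a, -0.24 to 0.015 for Dnmt3b, -0.051 to 0.46 for Tet2, -0.042 to 0.10 for Rbbp7, -0.13 to 0.15 for Ring1, -0.065 to 0.54 for Rnf2, -0.26 to 0.35 for Pcgf2, -0.37 to 0.14 for Phc1, -0.34 to 0.24 for Phc3, -0.22 to 0.098 for Kdm6b, -0.037 to 0.31 for Men1, -0.18 to 0.39 for Dot1l, -0.16 to 0.14 for Kdm5a and -0.14 to 0.17 for Kdm5b.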
